A study of Mus musculus with 9 samples.

Results

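The genes described here are nuclear genes for subunits of the mitochondrial respiratory chain and of ATP synthase, with the complex I assembly factors that share their naming, measured in mouse kidney. A gene was a member when its name began with Nduf, Uqcr or Atp5, or with Cox and a digit from 4 to 8, or was Sdha, Sdhb, Sdhc or Sdhd. Names holding -ps were dropped, and the mean FPKM (fragments per kilobase, scaled to the library total) over the 9 libraries had to be at least 0.5. In the table of 55385 genes, 109 names matched, 11 of them held -ps (10 processed pseudogenes and Ndufb1-ps, annotated as a noncoding RNA with a mean FPKM of 37.1), and 94 of the 98 others were members. They comprised 40 genes named for complex I, 8 complex I assembly factors, 4 genes of complex II, 8 of complex III, 17 of complex IV and 17 of complex V. The members just inside the threshold were Cox6a2, with a mean FPKM of 0.824, and Cox4i2, with 0.883. The 4 names outside it, Cox8c, Cox7b2, Ndufa11b and a second Atp5o entry (ENSMUSG00000116933), were at 0 in every library. Of the 94 members, 3 are annotated as pseudogenes (Cox6c2, Ndufb4c and Ndufs6b).

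Poly(A) RNA was sequenced from kidneys of male C57BL/6 mice, named C57BL/6J in the study's methods. They were aged 8 to 10 weeks at the start of a study with 8 mice in each group. From each group 3 libraries were used. Control mice were untreated. HN mice had hyperuricemic nephropathy, a kidney disease of high uric acid, induced with adenine at 0.16 g/kg and potassium oxonate at 2.4 g/kg, given on alternate days over 4 weeks. PEC mice were HN mice that also received the flavonoid pectolinarigenin by mouth at 25 mg/kg each day over the same weeks. The sample titles of the Control libraries also carry the words HN mice, while their disease state is given as control, and the disease state was used. Each library came from 1 mouse, so p-values measure the spread between these mice. Values are given in the order of the libraries, which is 2, 4 and 5 for Control, 4, 8 and 12 for HN and 1, 2 and 3 for PEC.

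Complexes I to IV of the inner mitochondrial membrane pass electrons from NADH and succinate to oxygen, complexes I, III and IV pump protons, and complex V, the ATP synthase, uses the proton gradient to make ATP. Complex I takes electrons from NADH, complex II from succinate, complex III passes them from ubiquinol to cytochrome c, and complex IV passes them to oxygen. Most subunits are encoded in the nucleus and imported, while a small core of complexes I, III, IV and V is encoded by mitochondrial DNA and complex II is wholly nuclear. The proximal tubule and the thick ascending limb of the kidney are rich in mitochondria and pay for salt and solute transport largely by oxidative phosphorylation.

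Total counts were 75320528, 74965874, 78459183 (Control), 74315544, 81069646, 74212324 (HN) and 74397038, 65583215, 57714111 (PEC), so the members rested on deep libraries. The members took 2.08, 2.11, 1.93 (Control), 1.48, 1.43, 1.51 (HN) and 1.82, 1.797, 1.797 (PEC) percent of all counts, and mitochondrially encoded genes took 13.3, 12.9, 16.3 (Control), 6.01, 6.22, 6.34 (HN) and 12.99, 10.3, 13.6 (PEC) percent. Both shares were lowest in the HN libraries, with no overlap with the other groups. Levels are the deposited FPKM divided by the trimmed mean of M-values (TMM) factor of each library, called TMM-scaled FPKM. Differences are log2 fold changes from the quasi-likelihood fit of edgeR to counts. A gene passed when its p, adjusted by Benjamini and Hochberg's method over all 15506 genes tested, did not exceed 0.05.

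The tissue label was checked with marker genes. The summed level of 10 proximal tubule markers, in TMM-scaled FPKM, was 3436, 3438, 3956 (Control), 759, 758, 773 (HN) and 1536, 1931, 1211 (PEC), and Slc27a2, a fatty acid transporter, was the most abundant of them. Umod, the main protein of urine and a thick limb product, led the 7 markers of the thick limb and distal convoluted tubule, which summed to 1378, 1536, 1511 (Control), 1404, 1216, 1326 (HN) and 1359, 1436, 1285 (PEC). Every library thus held kidney tubule RNA at high levels. Of 6 striated muscle markers, Myh4 was at 0 in every library and the others had a mean FPKM under 0.5. Adipocyte markers set 3 libraries apart, and the extraction note of the labels speaks of an adipose type while the tissue is given as kidney. Adipoq, the adipocyte hormone adiponectin, had levels of 1.88, 0, 0 (Control), 0.0781, 0, 4.02 (HN) and 0.0292, 0, 59.7 (PEC) in TMM-scaled FPKM. Control 2, HN 12 and PEC 3 were the libraries with Adipoq at 1 or more, and counts of members are also given without these 3 libraries.

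The comparison of HN with Control asks how the disease model differed from the healthy kidney. Respiratory chain genes were lower in the HN kidneys in every complex. The summed level of the 94 members was 13351, 13337, 12965 (Control), 6967, 6475, 6663 (HN) and 9664, 9695, 9659.9 (PEC) in TMM-scaled FPKM. The HN mean, 6701 ± 248 (SD, n = 3), was 50.7 percent of the Control mean of 13218 ± 219 (SD, n = 3), and the HN libraries lay below all others. In edgeR's test 85 members fell and 1 rose, beside 25.6 percent of all genes tested that fell and 24.4 percent that rose, and 8 members passed in neither direction. The median log2 difference of the members was -0.94, with quartiles of -1.07 and -0.77, against a median of -0.01 over all genes tested. The interquartile range was 0.30 over the members, 0.64 within complex IV, 0.53 within the assembly factors and 0.95 over all genes tested, and the median SE was 0.10 for members and 0.16 for all genes tested. In 88 members every HN library was below every Control library, beside 32.7 percent of all genes tested, and the groups overlapped for Ndufb4c, Cox4i2, Cox6b2, Cox7a2l and Cox8b. Without the libraries with adipocyte markers 82 members fell and 0 rose in edgeR's test, and the median was -0.90. These are bulk samples, in which fewer cells of a type and less RNA per cell cannot be told apart.

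**Figure D1:**
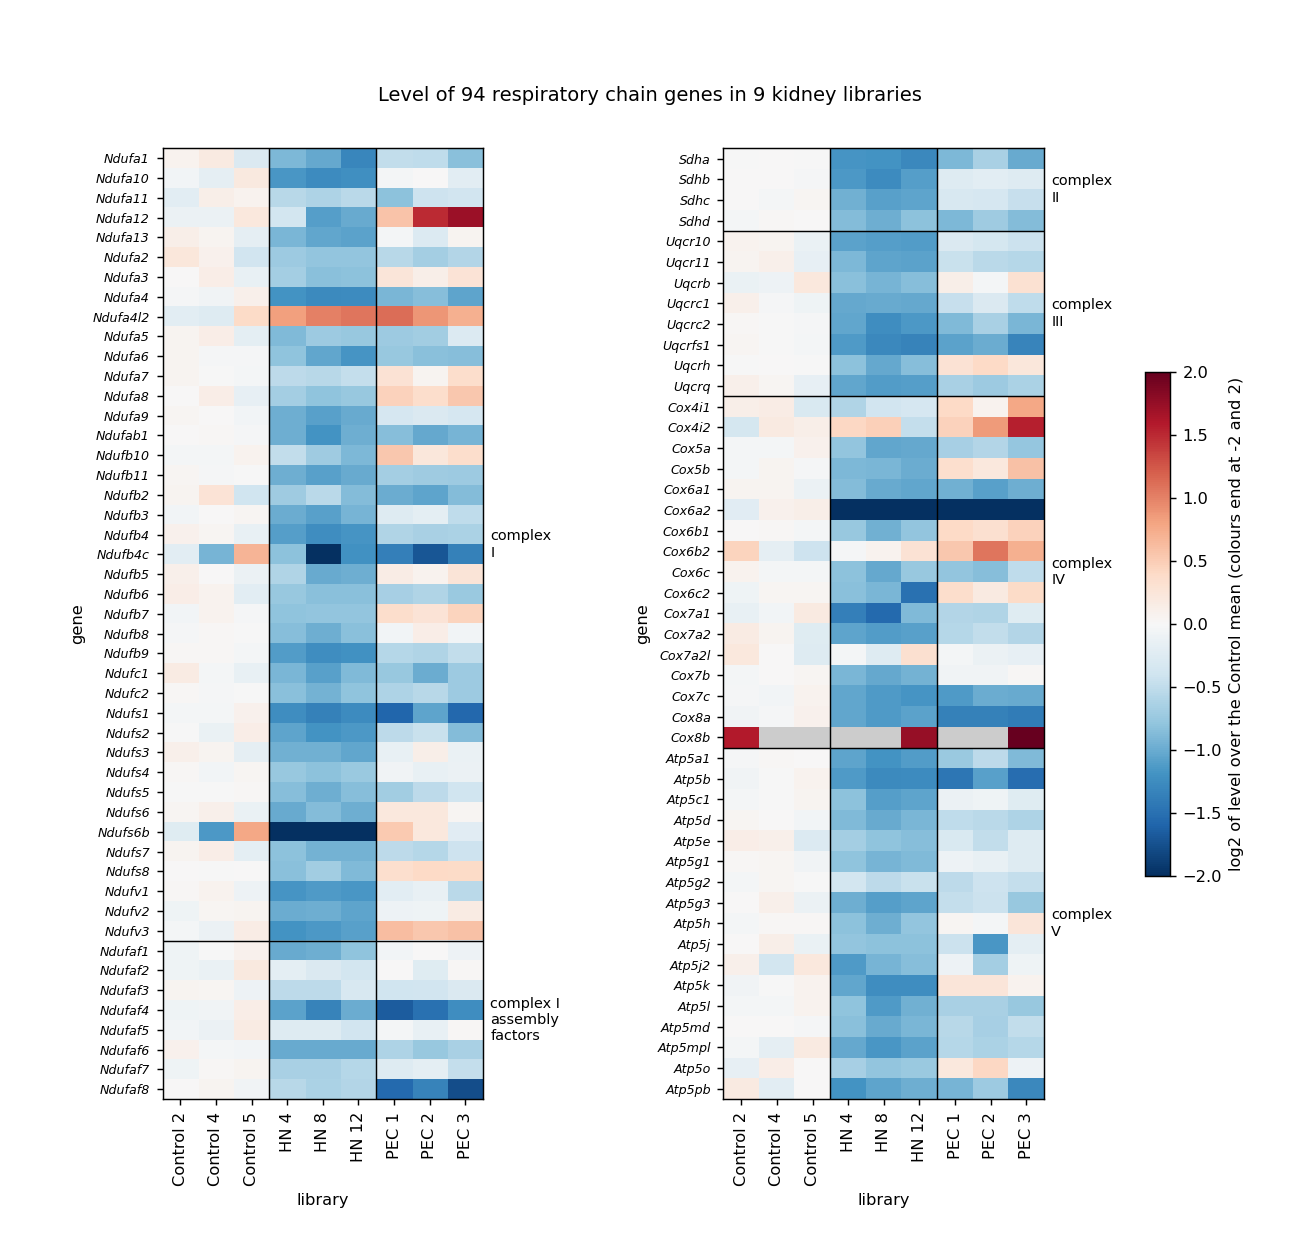
Level of each of the 94 members (rows) in each of the 9 libraries (columns), as the log2 ratio of its TMM-scaled FPKM to its Control mean, with colours that end at -2 and 2 and grey for a level of 0. The HN columns are blue for nearly all members, and the PEC columns hold both blue and red members, while without TMM scaling Ndufa7, Ndufaf3 and Atp5g2 are slightly above Control in HN.

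The heatmap of members by library shows this per gene. Set against the Control means, the median log2 ratio of the 93 members above 0 in every library was 0.01, 0.00, -0.01 (Control), -0.88, -1.01, -0.98 (HN) and -0.43, -0.41, -0.42 (PEC). The HN libraries were lowest and close to each other, and the PEC libraries lay between HN and Control. The 8 members that passed in neither direction were Ndufa12, Ndufaf2, Ndufaf5, Cox4i1, Cox4i2, Cox6b2, Cox7a2l and Cox8b. By complex, 38 of 40 complex I genes, 6 of 8 assembly factors, 4 of 4 genes of complex II, 8 of 8 of complex III, 12 of 17 of complex IV and 17 of 17 of complex V fell. The 12 of complex IV, and so the 85 members that fell, include Cox6a2, whose fall the filter itself favoured. Under library totals 27, 3, 4, 8, 11 and 12 fell in the same order. The median log2 differences were -0.93 for complex I, -0.58 for the assembly factors, -1.08 for complex II, -1.03 for complex III, -0.92 for complex IV and -0.94 for complex V, and under library totals they were -0.42, -0.06, -0.56, -0.52, -0.41 and -0.41. The gene that rose was Ndufa4l2.

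The size of the fall depends on how libraries are scaled. TMM factors were 0.841, 0.852, 0.790 (Control), 1.15, 1.19, 1.21 (HN) and 1.03, 1.005, 1.03 (PEC), so that HN libraries were scaled down and Control libraries up relative to their totals. When libraries were scaled by their total counts, the median of all genes tested in HN minus Control moved from -0.01 to 0.51, 8201 genes rose and 1603 fell, and 83.7 percent of the called genes were higher instead of 48.8 percent. Under that scaling 65 members fell and 2 rose, with a median of -0.42. Relative to the median of all genes tested, the members' median was -0.93 both with TMM factors and under library totals. A scaling factor shifts the log2 differences of all genes by about the same amount, so this agreement was fixed in advance. The members' median relative to all genes was -0.86 with GC and length offsets and -0.77 in limma on log2(FPKM + 1). With offsets for gene length the median of all genes was -0.14 and that of the members -1.04, and with offsets for GC content these were -0.14 and -1.03 in turn. Under library totals the differences of Ndufa7, Ndufaf3 and Atp5g2 turned to 0.03, 0.09 and 0.09, and these genes no longer passed.

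The comparison of PEC with HN asks what differed with the treatment. It shares the HN libraries with the first comparison, so the differences of a gene in both are not independent, and they are given side by side. The summed level of the members in PEC was 9673 ± 19.1 (SD, n = 3), which was 144 percent of the HN mean and 73.2 percent of the Control mean. In edgeR's test 64 members rose and 2 fell in PEC minus HN, beside 24.3 percent of all genes tested that rose and 25.6 percent that fell, and 28 passed in neither direction. The median log2 difference was 0.53 against -0.01 over all genes tested. In 67 members every PEC library was above every HN library, beside 29.2 percent of all genes tested, and for Ndufaf8 and Cox8a every PEC library was below. Without the libraries with adipocyte markers 57 members rose and 1 fell, with a median of 0.53. The quartiles of the members were 0.24 and 0.94, an interquartile range of 0.70 against 0.96 over all genes tested.

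**Figure D2:**
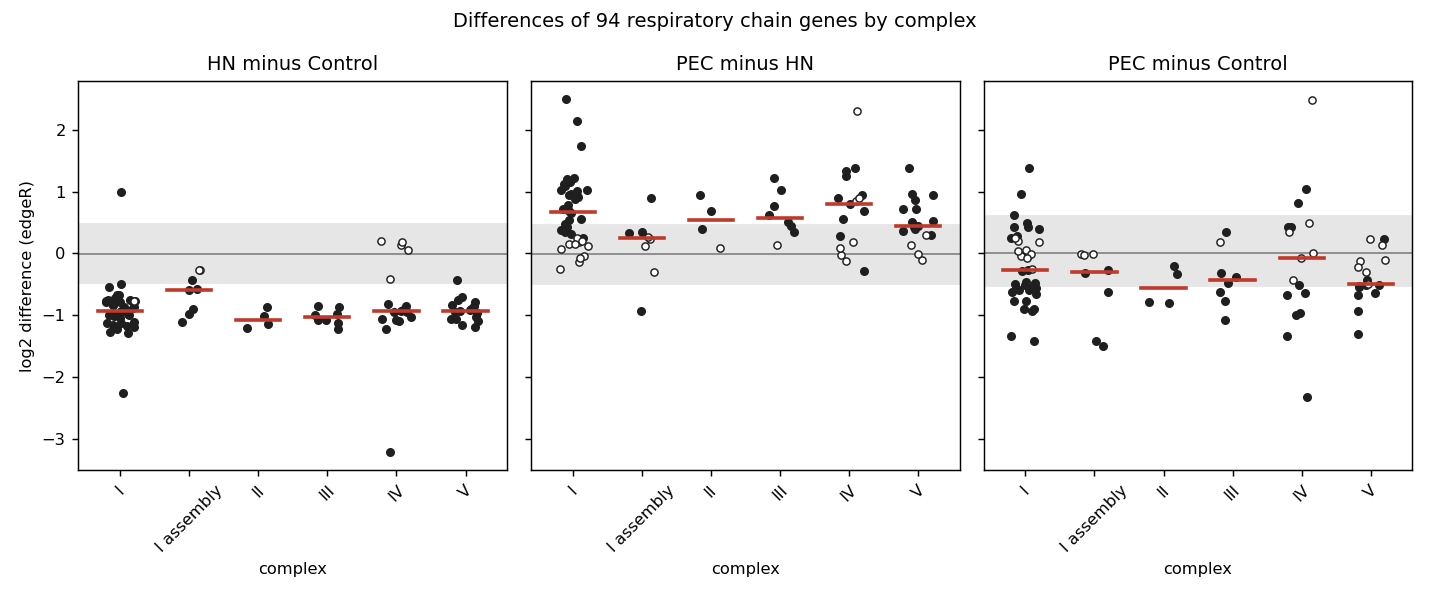
Log2 difference of each member by complex in the 3 comparisons; filled points passed edgeR's test and open points did not, red bars are medians, and the grey line and band are the median and quartiles of all genes tested. Most members lie below 0 in HN minus Control and above 0 in PEC minus HN, and they lie on both sides in PEC minus Control, where the medians of complex I (-0.27) and complex IV (-0.07) turn to 0.03 and 0.23 under library totals.

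The plot of differences by complex shows the members of each complex in the 3 comparisons. In PEC minus HN 29 of 40 complex I genes rose (median 0.67, against 0.41 with length offsets), as did 3 of 8 assembly factors (0.25, with 1 lower, against 1 higher and 2 lower under library totals), 3 of 4 genes of complex II (0.54, against 0.32 under library totals), 7 of 8 of complex III (0.57, against 0.35 under library totals), 9 of 17 of complex IV (0.79, against 0.38 with GC and length offsets) and 13 of 17 of complex V (0.45, with 0 lower, against 7 higher and 2 lower under library totals). Summed levels in PEC, as a percentage of HN, were 156 for complex I, 104 for the assembly factors, 136 for complex II, 158 for complex III, 135 for complex IV and 138 for complex V. As a percentage of Control, the same PEC sums were 80.1, 65.7, 65.01, 75.4, 71.4 and 68.2. The corresponding HN sums were 51.3, 63.3, 47.9, 47.8, 52.9 and 49.3 percent of Control. No difference between complexes was tested. Under library totals, where the median of all genes was -0.22 and 30.3 instead of 48.7 percent of called genes were higher, 44 members rose and 5 fell in PEC minus HN and their median was 0.32. Of the 15506 genes tested, 2428 rose and 5587 fell under that scaling.

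In PEC minus Control, which shares libraries with both other comparisons, 52 members were lower and 15 higher in edgeR's test, beside 28.6 percent of all genes tested that were lower and 28.1 percent that were higher. The median log2 difference was -0.35 against 0.01 over all genes tested. In 58 members every PEC library was below every Control library, beside 33.9 percent of all genes tested. This split moved with the scaling. Under library totals 30 members were higher and 33 lower, beside 6535 and 2704 of the 15506 genes tested, whose median was 0.31. In limma on log2(FPKM + 1) 29 members were higher and 34 lower, beside 6140 and 2896 genes. With length offsets 3 and 65 were, beside 3934 and 4843 genes, and with GC offsets 7 and 56, beside 3488 and 5191. With both offsets 2 and 60 were, beside 3692 and 4820 genes. Without the libraries with adipocyte markers 10 members were higher and 41 lower, beside 3357 and 3429 genes. The 15 higher members were Ndufa12, Ndufa3, Ndufa4l2, Ndufa7, Ndufa8, Ndufb10, Ndufb7, Ndufs8, Ndufv3, Uqcrh, Cox4i2, Cox5b, Cox6b1, Cox6b2 and Atp5k. Of these, the differences of Ndufa3, Ndufa7, Ndufa8, Ndufb10, Ndufs8, Uqcrh, Cox6b1 and Atp5k turned negative with offsets for length, GC content or both, and those of the other 7 stayed positive. In the other direction, the negative differences of Ndufa9, Ndufb3, Ndufaf7 and Sdhb turned positive under library totals.

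Complex I is the largest complex, with catalytic core subunits and a shell of accessory ones. The highest mean TMM-scaled FPKM over the 9 libraries was that of Ndufb9 (ENSMUSG00000022354, chromosome 15 from 58933756 to 58939488 of GRCm38), an accessory subunit of the membrane arm. Its levels were 279, 279, 269 (Control), 127, 116, 119 (HN) and 185, 182, 197 (PEC), while Ndufa1 was above it in Control 4, HN 4 and HN 8, and Ndufa2 in HN 8. The 3 groups did not overlap and PEC lay between the others. The log2 difference of Ndufb9 was -1.17 (SE 0.07) in HN minus Control and 0.65 (SE 0.07) in PEC minus HN, with edgeR adjusted p = 4.51e-06 and 0.00014, and 3 of 3 HN libraries were below Control and 3 of 3 PEC libraries above HN. Ndufs1, the largest iron-sulfur subunit of the core, chosen after its values were seen, had levels of 38.4, 38.5, 42.03 (Control), 16.8, 15.5, 16.5 (HN) and 13.2, 19.1, 13.3 (PEC). Control was high, and HN and PEC overlapped, with log2 differences of -1.26 in HN minus Control, where it fell, and -0.08 in PEC minus HN, where it did not pass.

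Ndufs8, another iron-sulfur subunit of the core, had levels of 81.6, 80.4, 81.1 (Control), 45.4, 50.05, 43.9 (HN) and 103, 107, 106 (PEC). Its PEC libraries were the highest and its HN libraries the lowest, with no overlap. The log2 difference was -0.78 in HN minus Control, 1.201 in PEC minus HN and 0.42 in PEC minus Control, and the last turned to -0.13 with GC and length offsets. Ndufv3, an accessory subunit of the flavoprotein part, showed the same order, with levels of 31.03, 29.2, 35.2 (Control), 13.8, 14.3, 15.04 (HN) and 48.6, 45.96, 47.9 (PEC). Its log2 differences were -1.12 (SE 0.08), 1.74 (SE 0.09) and 0.62 (SE 0.08) in HN minus Control, PEC minus HN and PEC minus Control, and edgeR's adjusted p was 8.44e-06 in PEC minus HN, with 3 of 3 PEC libraries above HN. Ndufa8, an accessory subunit on the intermembrane space side, had levels of 128, 139, 113 (Control), 78.9, 72.6, 75.3 (HN) and 174, 162, 185 (PEC). These groups did not overlap either, and the difference of 0.49 in PEC minus Control turned to -0.14 with GC and length offsets. Ndufs8, Ndufv3 and Ndufa8 were chosen after their values were seen.

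The pseudogenes and copies of complex I genes were the least certain values. Ndufs6b, a processed pseudogene of Ndufs6, had the largest fall and the largest rise of complex I among genes with no overlap. Its levels were 3.95, 2.11, 8.01 (Control), 0.963, 1.07, 0.858 (HN) and 6.73, 5.45, 3.99 (PEC). Every HN library was lowest, and Control and PEC overlapped. It fell by 2.25 on the log2 scale in HN minus Control and rose by 2.5000 in PEC minus HN, and reads from Ndufs6 itself could have been placed there. Ndufa12, an accessory subunit chosen after its values were seen, had levels of 25.1, 25.1, 31.4 (Control), 20.995, 12.6, 13.5 (HN) and 40.4, 76.5, 89.5 (PEC). The 3 groups did not overlap, and PEC 2 and PEC 3 were far above all other libraries. Its log2 difference was -0.77 in HN minus Control, where edgeR's adjusted p was 0.0563 with 3 of 3 HN libraries below Control and which passed with offsets for length or GC content, and 2.15 in PEC minus HN. A single near-identical copy held reads equal to 176, 181, 142 (Control), 80.99, 187, 169 (HN) and 141, 25.8, 20.1 (PEC) percent of those of Ndufa12, so its share was lowest where Ndufa12 was highest. With the reads of the copy added, the differences were -0.94 in HN minus Control, where it then passed, 1.46 in PEC minus HN and 0.52 in PEC minus Control.

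Ndufa4 was first named for complex I and is now known as a subunit of complex IV, but by its name it was counted with complex I here, and its relatives Ndufa4l2 and AA467197 encode similar proteins. Ndufa4 had levels of 221, 214, 241 (Control), 98.6, 93.6, 94.2 (HN) and 119.7, 125, 108 (PEC). Control was high, HN was low and PEC lay just above HN, with no overlap, and the log2 differences were -1.21 in HN minus Control and 0.32 in PEC minus HN, the latter 0.10 and not passing under library totals. Ndufa4l2, known as a target of hypoxia-inducible factors, moved the other way, with levels of 1.97, 1.91, 3.0003 (Control), 4.03, 4.62, 4.82 (HN) and 5.01, 4.22, 3.77 (PEC). It rose by 0.99 (SE 0.22) on the log2 scale in HN minus Control, with edgeR adjusted p = 0.0051 and 3 of 3 HN libraries above Control. HN and PEC overlapped and their difference was -0.03. Without the libraries with adipocyte markers the difference of Ndufa4l2 in HN minus Control was 0.83 and did not pass. AA467197, which falls outside the naming rule, had levels of 0.286, 0.188, 0.0506 (Control), 2.25, 2.47, 2.13 (HN) and 1.38, 1.87, 3.82 (PEC). It was near 0 in Control and higher in every HN and PEC library, with log2 differences of 3.71 in HN minus Control and 0.07 in PEC minus HN, where it did not pass. Its group mean was under 0.5 in Control alone, so the filter itself favoured a rise from Control, and the first difference is given as a description.

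**Figure D3:**
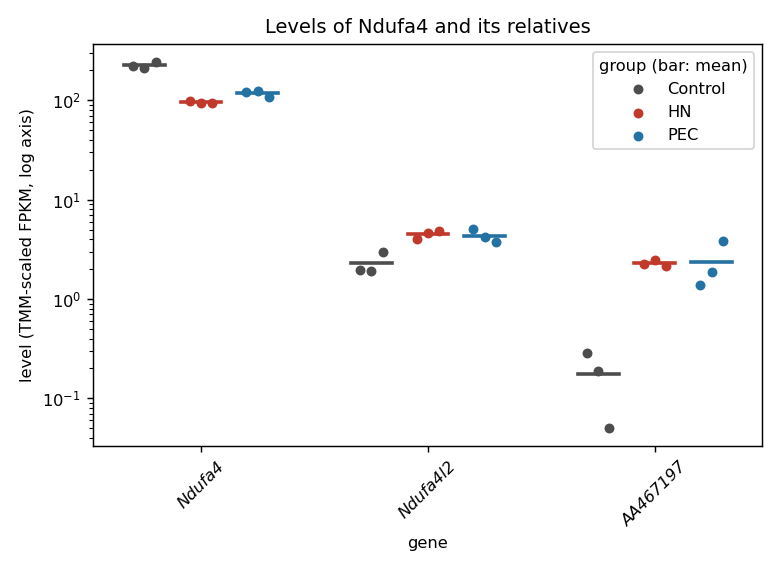
Level of Ndufa4, Ndufa4l2 and AA467197 in each library, in TMM-scaled FPKM on a log axis, with dots for libraries and a bar for the group mean. Ndufa4 is highest in Control, while Ndufa4l2 and AA467197 are lowest there, in each case without overlap with HN.

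The plot of Ndufa4 and its relatives shows how far apart their levels lay. In TMM-scaled FPKM, Ndufa4l2 stood at 0.892, 0.896, 1.24 (Control), 4.09, 4.94, 5.11 (HN) and 4.18, 3.37, 3.49 (PEC) percent of Ndufa4. AA467197 stood at 0.129, 0.08797, 0.021 (Control), 2.28, 2.63, 2.26 (HN) and 1.15, 1.49, 3.54 (PEC) percent. Ndufa4 was thus the most abundant of the 3 by a wide margin in every library, and both relatives took a larger share in HN and PEC than in Control.

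The other complex I genes are given by their ranges. Beside Ndufa4l2 and Ndufa12, log2 differences of the complex I genes in HN minus Control ran from -2.25 for Ndufs6b to -0.49 for Ndufa7, and all of them passed. Under library totals Ndufa11, Ndufa2, Ndufa3, Ndufa5, Ndufa7, Ndufa8, Ndufb10, Ndufb2, Ndufb4c, Ndufb5 and Ndufb6 no longer did. There were 11 complex I genes that did not pass in PEC minus HN, namely Ndufa11, Ndufa2, Ndufa4l2, Ndufa5, Ndufa6, Ndufab1, Ndufb2, Ndufb4c, Ndufb6, Ndufc1 and Ndufs1. The lowest of their differences was -0.25 for Ndufb2 and the highest 0.25 for Ndufa5. The rises of Ndufb11, Ndufc2 and Ndufs5 in PEC minus HN, 0.34, 0.25 and 0.37, turned to -0.12, -0.15 and -0.01 with GC and length offsets, and under library totals these 3, Ndufa1, Ndufa4 and Ndufs7 did not pass.

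The assembly factors build complex I and are not part of the finished enzyme. They were less abundant than the subunits, with summed levels of 95.7, 96.2, 97.5 (Control), 61.1, 59.4, 62.7 (HN) and 63.4, 64.5, 62.2 (PEC) in TMM-scaled FPKM. HN and PEC lay close together below Control, and their ranges overlapped. The highest mean level over the 9 libraries was that of Ndufaf8, an assembly factor with twin cysteine motifs, at 29.8, 30.5, 28.2 (Control), 20.02, 18.98, 19.6 (HN) and 10.03, 11.7, 8.64 (PEC), while Ndufaf1 was above it in every PEC library and Ndufaf3 in PEC 3. All 3 groups were separate, with Control highest and PEC lowest, and it fell in both HN minus Control (-0.57) and PEC minus HN (-0.93 (SE 0.11), edgeR adjusted p = 0.000265, 3 of 3 PEC libraries below HN). Under library totals the difference in HN minus Control was -0.05 and did not pass. Ndufaf4, which acts early in assembly, had levels of 5.95, 6.03, 6.94 (Control), 2.99, 2.49, 3.16 (HN) and 1.99, 2.25, 2.67 (PEC). It fell in HN minus Control (-1.105), while HN and PEC overlapped and differed by -0.30, which did not pass. Without PEC 3 that difference was -0.41 and under library totals -0.52, and it passed in both. Ndufaf1, an early scaffold factor, had levels of 14.9, 15.7, 16.8 (Control), 7.83, 8.03, 9.09 (HN) and 15.2, 15.9, 14.8 (PEC), with HN separate from both other groups and the largest rise of the assembly factors in PEC minus HN (0.90). Ndufaf6, Ndufaf7 and Ndufaf3 also fell in HN minus Control, Ndufaf2 and Ndufaf5 did not pass, and Ndufaf6 and Ndufaf7 rose in PEC minus HN. Under library totals Ndufaf3 and Ndufaf7 no longer passed in the former comparison, nor Ndufaf6 and Ndufaf7 in the latter. The median of the assembly factors in PEC minus Control, -0.29, was 0.01 under library totals.

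Complex II, succinate dehydrogenase, also works in the tricarboxylic acid cycle. Its flavoprotein Sdha (ENSMUSG00000021577, chromosome 13 from 74322254 to 74350280 of GRCm38) had levels of 218, 218, 218 (Control), 95.9, 95.4, 89.1 (HN) and 116, 139, 109 (PEC) in TMM-scaled FPKM. The iron-sulfur subunit Sdhb had levels of 138, 137, 135 (Control), 61.7, 57.04, 63.4 (HN) and 114, 119, 115 (PEC). For both genes the groups did not overlap, with Control highest and HN lowest. Sdhc, a membrane anchor, had levels of 109.9, 107, 113 (Control), 56.3, 51.97, 52.6 (HN) and 88.01, 87.5, 79.5 (PEC). Sdhd, the other anchor, had the highest mean level of the 4 and stood at 233, 243, 240.2 (Control), 130.4, 121, 135 (HN) and 128, 147, 131 (PEC). The HN libraries were lowest for Sdhc, while for Sdhd HN and PEC overlapped. All 4 genes fell in HN minus Control, with log2 differences of -1.196 (SE 0.09) for Sdha, -1.15 (SE 0.07) for Sdhb, -1.01 (SE 0.07) for Sdhc and -0.87 (SE 0.07) for Sdhd. The same genes had 0.39, 0.95, 0.68 and 0.09 in PEC minus HN. Sdha, Sdhb and Sdhc passed there, though Sdha did not under library totals (0.18), while Sdhd did not in edgeR's test (adjusted p = 0.358), and with GC and length offsets Sdhd had -0.24 and passed. In PEC minus Control all 4 were lower, with -0.80, -0.20, -0.33 and -0.78, and Sdhb turned to 0.10 under library totals, where neither it nor Sdhc passed.

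Complex III passes electrons from ubiquinol to cytochrome c. Uqcr10, a small subunit, was its most abundant gene (ENSMUSG00000059534, chromosome 11 from 4701973 to 4704342 of GRCm38), with levels of 453, 449, 395 (Control), 207, 201, 199.9 (HN) and 354, 340.4, 322 (PEC) in TMM-scaled FPKM. The 3 groups did not overlap. Its log2 difference was -1.07 in HN minus Control and 0.76 in PEC minus HN, the latter 0.19 and not passing with GC and length offsets. Uqcrfs1, the Rieske iron-sulfur protein, had levels of 350.4, 340.0, 334 (Control), 155, 140.3, 135 (HN) and 162, 172, 137 (PEC). Control was more than all others, and PEC 3 lay within the range of HN. It had the largest fall of complex III in HN minus Control, -1.23 (SE 0.09) (edgeR adjusted p = 1.54e-05, 3 of 3 HN libraries below Control), and 0.14 in PEC minus HN, which did not pass. Without PEC 3 the latter was 0.25 and passed. Uqcrh, the hinge protein that binds cytochrome c1, had levels of 166, 169, 167 (Control), 95.2, 81.99, 93.02 (HN) and 205, 219.5, 196 (PEC). Here PEC was highest and HN lowest, with 1.22 in PEC minus HN and 0.35 in PEC minus Control, and the latter turned to -0.03 with length offsets. The other 5 genes, Uqcrc1, Uqcrc2, Uqcrq, Uqcr11 and Uqcrb, fell in HN minus Control, from -1.12 to -0.85, and rose in PEC minus HN, from 0.35 to 1.03, on the log2 scale, though Uqcrc2 and Uqcrq did not under library totals.

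Complex IV, cytochrome c oxidase, passes the electrons to oxygen. Cox6a1 (ENSMUSG00000041697, chromosome 5 from 115345642 to 115348981 of GRCm38), the subunit form found outside heart and skeletal muscle, had the highest mean level of all members over the 9 libraries, at 978, 969, 863 (Control), 514, 467, 456 (HN) and 481, 442, 474 (PEC) in TMM-scaled FPKM, while Cox6b1 was above it in every PEC library, Cox4i1 in PEC 3 and Cox8a in Control 5. HN and PEC overlapped below Control. The log2 difference was -0.94 (SE 0.09) in HN minus Control, where it fell, and -0.02 in PEC minus HN, which did not pass but was -0.40 and passed with length offsets. Cox8a, the ubiquitous form of the smallest subunit, had levels of 867, 896, 959 (Control), 444, 415, 433 (HN) and 354, 355, 344 (PEC). All PEC libraries were below HN and all HN libraries below Control. It fell in both HN minus Control (-1.05) and PEC minus HN (-0.28 (SE 0.07), edgeR adjusted p = 0.00865, 3 of 3 PEC libraries below HN). Without the libraries with adipocyte markers the second difference was -0.24 and did not pass.

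Other complex IV subunits moved the opposite way in PEC. Cox6b1, which faces the intermembrane space near the cytochrome c site, had levels of 440.4, 442, 426 (Control), 257, 224, 252 (HN) and 574, 542, 597 (PEC). Every PEC library was above Control and every HN library below, with log2 differences of -0.81 in HN minus Control, 1.24 in PEC minus HN and 0.43 in PEC minus Control, the last turning to -0.15 with GC and length offsets. Cox5b and Cox7c were chosen after their values were seen. Cox5b, a zinc-binding subunit on the matrix side, had levels of 113, 122, 115 (Control), 62.5, 62.2, 58.5 (HN) and 147, 135, 174 (PEC), in the same order of groups. Cox7c, a small membrane subunit, had levels of 303, 294, 324 (Control), 150.1, 141, 136 (HN) and 140.3, 155, 153 (PEC). HN and PEC overlapped for Cox7c, with -1.09 in HN minus Control, where it fell, and 0.09 in PEC minus HN, where it did not pass except with GC offsets. Cox7b, a membrane subunit whose second form Cox7b2 was at 0 in every library, fell by 0.94 and rose by 0.95 on the log2 scale, and its Control and PEC libraries overlapped. Cox6c2, a pseudogene of Cox6c and thus uncertain, had levels of 13.1, 14.3, 14.4 (Control), 7.77, 7.38, 4.95 (HN) and 17.9, 15.7, 18.2 (PEC). The HN libraries were lowest, and it had the largest rise of complex IV in PEC minus HN among genes with no overlap (1.38).

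**Figure D4:**
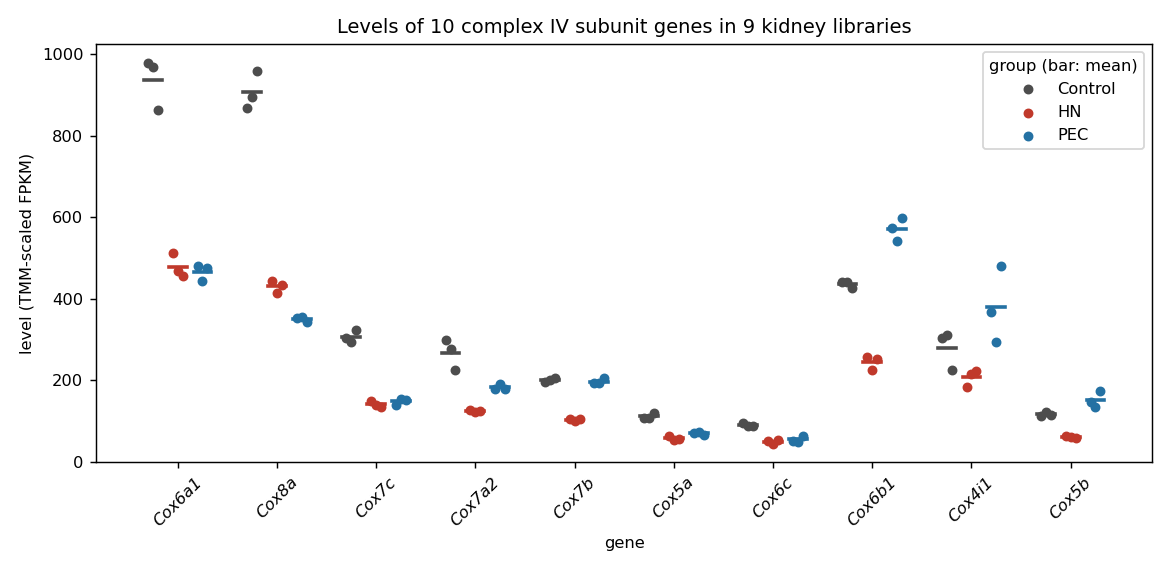
Level of 10 complex IV subunit genes in each library, in TMM-scaled FPKM, with dots for libraries and a bar for the group mean. In PEC, Cox8a lies below the HN libraries, Cox6a1 and Cox7c overlap them, and Cox6b1 and Cox5b lie above the Control libraries; with GC and length offsets Cox6b1 is instead below Control by 0.15 on the log2 scale.

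The plot of complex IV levels shows that subunits of the same enzyme took different orders in PEC. Cox4i1, the main form of the largest nuclear subunit, had levels of 303, 311, 226 (Control), 184, 215, 223 (HN) and 367, 295, 479.9 (PEC) in TMM-scaled FPKM. PEC 3 was highest and Control 5 lay close to HN 12, although every HN library was below every Control library. Its log2 difference of -0.41 (SE 0.20) in HN minus Control did not pass in edgeR's test (adjusted p = 0.117, 3 of 3 HN libraries below Control), while it did pass with offsets for length (-0.51) and for GC content (-0.63). It rose in PEC minus HN (0.90).

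Several complex IV subunits exist in forms used by different tissues. Cox4i2, the form typical of lung, stood at 0.161, 0.227, 0.297 (Control), 0.448, 0.401, 0.19999 (HN) and 0.233, 0.381, 0.382 (PEC) percent of Cox4i1 in TMM-scaled FPKM and passed in PEC minus Control (1.05, though not with offsets for length or GC content) but in neither other comparison. Cox6a2, the heart and muscle form, had levels of 1.86, 2.29, 2.34 (Control), 0.0954, 0.394, 0.173 (HN) and 0.476, 0.497, 0.273 (PEC). Its Control libraries were well above all others. It fell by 3.21 on the log2 scale in HN minus Control. Its group mean reached 0.5 in Control alone, so the filter itself favoured a fall from Control, and the difference is given as a description. The counts of members lower in HN minus Control and in PEC minus Control include it. HN and PEC overlapped, with 0.89 in PEC minus HN, which did not pass, and without HN 8 this difference was 1.57 and passed. Cox6b2, the testis form, stood at 1.105, 0.7097, 0.6298 (Control), 1.36, 1.67, 1.72 (HN) and 0.904, 1.37, 0.974 (PEC) percent of Cox6b1. It passed in PEC minus HN (0.68, edgeR adjusted p = 0.0453, 3 of 3 PEC libraries above HN), and not under library totals (0.46) or when any library but Control 2 or Control 5 was left out (0.54 to 0.78).

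Cox7a1, the heart and muscle form, stood at 5.65, 6.52, 9.45 (Control), 5.68, 5.19, 8.12 (HN) and 6.99, 6.498, 8.904 (PEC) percent of Cox7a2, the liver form. Both forms fell in HN minus Control, by 1.21 for Cox7a1 and 1.07 for Cox7a2, and rose in PEC minus HN, by 0.79 and 0.56 on the log2 scale. Neither rise passed with GC and length offsets, where they were 0.22 and 0.11, and that of Cox7a1 did not under library totals (0.57). Cox7a2l, a related gene, had levels of 77.9, 67.5, 56.2 (Control), 65.2, 56.3, 84.05 (HN) and 65.1, 62.1, 59.7 (PEC). These overlapped between all groups. Its log2 difference was 0.05 (SE 0.16) in HN minus Control and -0.12 in PEC minus HN and passed in neither, although under library totals it was 0.57 in HN minus Control and passed.

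Cox8b, the form of heart, muscle and brown fat, was at 0 in 6 libraries. Its levels in TMM-scaled FPKM were 4.84, 0, 0 (Control), 0, 0, 5.39 (HN) and 0, 0, 26.4 (PEC). The libraries above 0 were Control 2, HN 12 and PEC 3, the same ones that held adipocyte markers. Cox8b did not pass in any comparison, and no fold is given since most libraries were at 0. Ucp1, the uncoupling protein of brown fat, had levels of 2.51, 0, 0 (Control), 0, 0, 2.89 (HN) and 0.0486, 0, 49.4 (PEC). Cidea, a lipid droplet protein of brown fat, had levels of 5.35, 0.0822, 0 (Control), 0.0781, 0, 3.64 (HN) and 0.0778, 0, 55.3 (PEC). The 6 adipocyte markers were Adipoq, Plin1, Cidec, Ucp1, Cidea and Lep, of which 5 were tested and Lep had a mean FPKM under 0.5, and none passed in any comparison. In edgeR's test 0 of 5 also had an unadjusted p of at most 0.05, and Adipoq had the highest mean level over the 9 libraries. Their summed level was 12.6, 0.1996, 0.0633 (Control), 0.2603, 0.327, 13.9 (HN) and 0.3402, 0.159, 211 (PEC), and their part in the other results is given by the counts without these libraries.

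**Figure D5:**
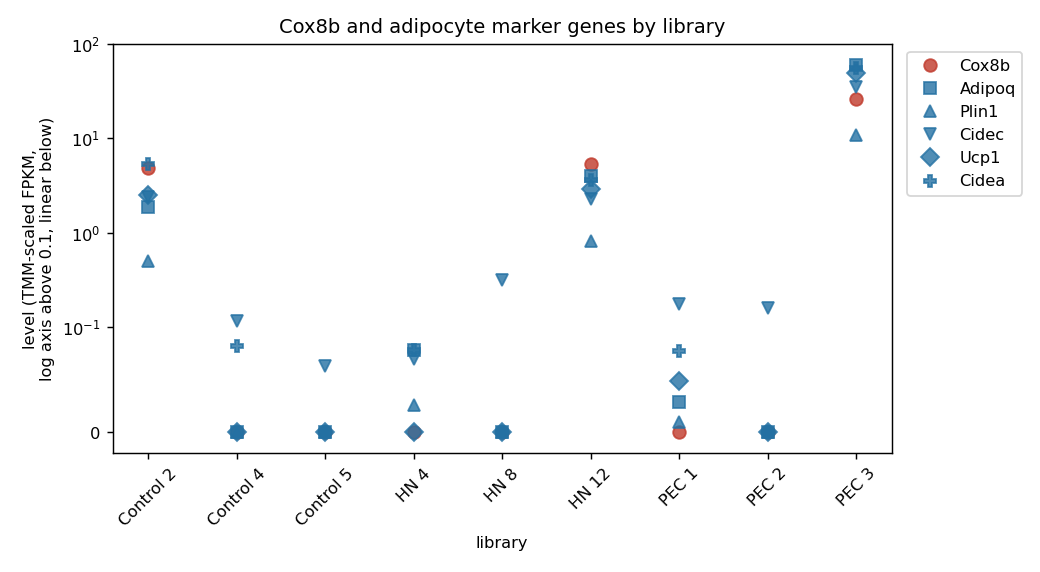
Level of Cox8b and of adipocyte marker genes in each library, in TMM-scaled FPKM on an axis that is logarithmic above 0.1 and linear below. Control 2, HN 12 and PEC 3 are the libraries in which Cox8b is above 0, and the adipocyte markers are highest there.

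The plot of Cox8b with adipocyte markers shows 1 such library in each group. These marker genes and the contrast of Cox8b with them were chosen after their values were seen.

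Complex V makes ATP. Its catalytic beta subunit Atp5b (ENSMUSG00000025393, chromosome 10 from 128083273 to 128090391 of GRCm38) had its highest mean level over the 9 libraries, with levels of 699, 727, 773 (Control), 335, 305, 307 (HN) and 268, 347, 255 (PEC) in TMM-scaled FPKM, while Atp5a1 was above it in every PEC library. HN and PEC overlapped, with PEC 2 above HN 4 and PEC 1 and PEC 3 below all HN libraries. Its log2 difference was -1.19 (SE 0.12) in HN minus Control, the largest fall of complex V, and -0.11 (SE 0.12) in PEC minus HN (edgeR adjusted p = 0.498, 2 of 3 PEC libraries below HN), which did not pass. Under library totals the latter was -0.32 and passed. Atp5k, the small membrane subunit e, had levels of 132, 138, 146 (Control), 67.3, 58.6, 58.4 (HN) and 164, 164, 146 (PEC). Every PEC library was above the highest Control library, PEC 3 by little, and HN was lowest. It fell by 1.15 in HN minus Control and rose by 1.38 in PEC minus HN, the largest rise of complex V, and its difference in PEC minus Control of 0.23 turned to -0.48 with GC and length offsets.

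Atp5g1, Atp5g2 and Atp5g3 encode the same mature subunit c of the proton-driven ring. Atp5g1 had levels of 43.1, 43.3, 40.5 (Control), 24.1, 22.2, 22.98 (HN) and 39.4, 38.1, 35.4 (PEC) in TMM-scaled FPKM. Atp5g3 was the most abundant, with levels of 251, 268, 231 (Control), 126, 116, 120.3 (HN) and 180.4, 185, 149 (PEC). Atp5g2 had levels of 102, 107, 104 (Control), 80.7, 72.6, 76.4 (HN) and 72.6, 78.7, 75.04 (PEC). HN was lowest for Atp5g1 and Atp5g3, while HN and PEC overlapped for Atp5g2. In HN minus Control the log2 differences were -0.85 for Atp5g1, -0.43 for Atp5g2 and -1.02 for Atp5g3, and all passed, but Atp5g2 turned to 0.09 under library totals. In PEC minus HN Atp5g1 rose by 0.72 and Atp5g3 by 0.52, the latter 0.28 and not passing in limma on log2(FPKM + 1), while Atp5g2 did not pass except under library totals (-0.22). The other 12 genes of complex V fell in HN minus Control, with log2 differences from -1.098 (Atp5a1) to -0.71 (Atp5o), though Atp5e, Atp5j, Atp5j2 and Atp5o did not under library totals. Of these, Atp5j and Atp5pb did not pass in PEC minus HN, and the rest rose by 0.30 (Atp5l) to 0.96 (Atp5h), though under library totals Atp5a1, Atp5d, Atp5e, Atp5j2, Atp5l and Atp5md did not.

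Reads of a gene and of a near-identical copy can be split by the counting. The longest protein-coding transcript of each of the 91 members that are not pseudogenes was searched against transcripts of genes annotated as processed pseudogenes. Of these members, 36 had a total of 95 such copies. Coding genes and other kinds of copy were not searched. The copies held reads equal to 1.57, 1.503, 1.73 (Control), 1.56, 1.53, 1.68 (HN) and 2.31, 1.8, 1.98 (PEC) percent of the members' reads. The share was highest in PEC 1. For 11 members, Atp5g1, Atp5h, Atp5l, Atp5md, Cox7c, Ndufa12, Ndufab1, Ndufb4, Ndufs3, Uqcr11 and Uqcrb, copies held 10 percent or more in at least 1 library, and their values are uncertain to that extent. With all copy reads added, 86 members fell and 1 rose in HN minus Control, 64 rose and 2 fell in PEC minus HN, and 15 were higher and 52 lower in PEC minus Control. The pseudogenes Ndufb4c and Ndufs6b stayed members in these counts, so their reads entered both their own rows and those of Ndufb4 and Ndufs6. Uqcr11 moved from 0.51 to 0.78 in PEC minus HN with its copies, and of these 11 members Ndufa12 alone changed its call in HN minus Control. In PEC minus Control the lower call of Uqcr11 was lost (-0.20) and Atp5g1 gained one (-0.27).

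RefSeq promoters, each from 250 bases before to 50 after a gene's start, were found for 75 of 91 members that are not pseudogenes, among 27025 genes. Motifs known for nuclear respiratory control were searched on both strands, and a match is a description of letters. The NRF1 motif, GCGCA and GCGC with any letter between them, was in 19 promoters of members, 25.3 percent, against 4.83 percent of all promoters. The GABPA motif CCGGAAG was in 18 (24.0 against 9.20 percent), the estrogen-related receptor motif AAGGTCA in 8 (10.7 against 4.64 percent) and the YY1 motif AAGATGG in 11 (14.7 against 6.49 percent). The last 3 letters of CCGGAAG can also be the first 3 of AAGGTCA or AAGATGG. At least 1 of these 4 motifs was in 43 of 75 members' promoters, 57.3 percent, against 22.6 percent of all and 33.0 percent of those of genes tested. Among the 10704 promoters of genes tested, the NRF1, GABPA, estrogen-related receptor and YY1 motifs were in 9.96, 17.7, 3.28 and 7.04 percent. CCAAT was in 33 members' promoters, 44.0 percent, against 37.9 percent of all and 38.1 percent of those of genes tested. TATAAA was in 7, 9.33 percent, against 14.2 percent of all but 7.48 percent of those of genes tested. The median GC content of the promoters was 58.7 percent in members, 52.7 percent in all and 60.7 percent in genes tested.

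For each complex 1 promoter with the most of these matches is shown, Sdhd and Atp5l having as many as Sdha and Atp5k, from the RefSeq table on build GRCm38.p6. They lie at chr16:37654319-37654618 on the minus strand for Ndufb4, chr13:74350191-74350490 on the minus strand for Sdha, chr9:108936398-108936697 on the plus strand for Uqcrc1, chr5:115348909-115349208 on the minus strand for Cox6a1 and chr5:108434350-108434649 on the minus strand for Atp5k. Each is written 5′ to 3′ along its gene, with the 4 motifs in capitals and all else in lower case.
Ndufb4: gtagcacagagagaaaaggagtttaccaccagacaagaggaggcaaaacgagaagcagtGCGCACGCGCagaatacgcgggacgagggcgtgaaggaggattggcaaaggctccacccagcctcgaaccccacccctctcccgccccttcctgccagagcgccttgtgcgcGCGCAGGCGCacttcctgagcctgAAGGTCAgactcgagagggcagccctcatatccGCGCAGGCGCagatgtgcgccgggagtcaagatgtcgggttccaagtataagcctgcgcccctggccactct
Sdha: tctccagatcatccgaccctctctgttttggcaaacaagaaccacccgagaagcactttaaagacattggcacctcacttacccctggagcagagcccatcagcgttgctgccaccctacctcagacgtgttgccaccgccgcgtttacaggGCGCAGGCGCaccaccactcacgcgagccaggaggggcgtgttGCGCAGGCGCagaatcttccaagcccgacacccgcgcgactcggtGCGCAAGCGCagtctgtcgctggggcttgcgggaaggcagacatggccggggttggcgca
Uqcrc1: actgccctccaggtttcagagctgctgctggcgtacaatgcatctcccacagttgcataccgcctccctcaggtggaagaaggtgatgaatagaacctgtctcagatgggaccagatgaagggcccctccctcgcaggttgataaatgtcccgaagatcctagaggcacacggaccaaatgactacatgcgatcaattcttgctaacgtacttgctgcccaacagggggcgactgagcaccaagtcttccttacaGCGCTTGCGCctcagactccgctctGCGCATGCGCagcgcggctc
Cox6a1: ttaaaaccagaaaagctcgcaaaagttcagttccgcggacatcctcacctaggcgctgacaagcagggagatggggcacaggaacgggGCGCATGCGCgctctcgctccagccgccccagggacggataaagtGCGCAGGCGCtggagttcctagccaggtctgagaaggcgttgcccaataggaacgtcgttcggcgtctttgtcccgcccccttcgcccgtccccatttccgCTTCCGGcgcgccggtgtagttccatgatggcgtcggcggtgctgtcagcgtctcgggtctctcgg
Atp5k: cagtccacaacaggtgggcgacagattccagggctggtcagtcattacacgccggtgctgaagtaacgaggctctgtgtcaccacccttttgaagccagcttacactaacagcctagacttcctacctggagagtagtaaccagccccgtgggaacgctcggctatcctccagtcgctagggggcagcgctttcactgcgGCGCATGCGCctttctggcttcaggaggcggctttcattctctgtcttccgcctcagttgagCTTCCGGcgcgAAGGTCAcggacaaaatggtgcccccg

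In these stretches the NRF1 motif occurred 3 times in Ndufb4 and Sdha, 2 times in Uqcrc1 and Cox6a1 and 1 time in Atp5k. All 5 genes fell in HN minus Control, with log2 differences of -1.15 for Ndufb4, -1.196 for Sdha, -0.997 for Uqcrc1, -0.94 for Cox6a1 and -1.15 for Atp5k. They differed in PEC minus HN, with 0.56, 0.39, 0.62, -0.02 and 1.38, and Cox6a1 did not pass. Members lay on 19 chromosomes, with the largest number, 10, on chromosome 7, and 3 were on X.

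Length and base composition can shift counts, and the members were short. Their median length was 1727 bases against 4114 over all genes tested, and their median GC content was 50.2 against 49.8 percent. Across genes, which are not independent replicates, Spearman's rho between length and the log2 difference was -0.05 among 94 members and 0.07 among 15495 genes tested in HN minus Control. In PEC minus HN it was -0.13 in members and -0.33 in all genes tested. For GC content rho was 0.09 and 0.06 in HN minus Control and 0.11 and 0.21 in PEC minus HN. The counts of members with offsets for these properties were 89 lower in HN minus Control for length and for GC content, and 50 and 63 higher in PEC minus HN.

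The subunits that mitochondrial DNA encodes moved with the nuclear ones. All 13 fell in HN minus Control, with a median log2 difference of -1.91, and 11 of 13 rose in PEC minus HN, with a median of 1.28. Poly(A) selection takes up mitochondrial transcripts unevenly. Their summed level was 140820.0, 134210.0, 195410.0 (Control), 44726, 45364, 44836 (HN) and 111600.0, 91133, 114130.0 (PEC) in TMM-scaled FPKM, and mt-Co1, the catalytic subunit of complex IV, was the most abundant. The HN libraries were lowest and Control 5 was highest. In PEC minus Control 7 of 13 were lower, with a median of -0.66 that turned to 0.01 with GC offsets. The largest fall in HN minus Control was that of mt-Atp6, a proton channel subunit of complex V, at 3189.9, 3014, 18260.0 (Control), 1038, 1022, 895 (HN) and 2469.6, 1999, 2521 (PEC). Control 5 stood far above Control 2 and Control 4, and the difference was -3.02 (SE 0.66), or -1.64 without Control 5. Its difference of 1.26 in PEC minus HN did not pass, and passed without Control 5 and with GC offsets (1.73). When libraries were scaled without the mitochondrially encoded genes, the nuclear members gave the same counts, 85 lower and 1 higher in HN minus Control.

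Genes that build the complexes without sharing the subunit names were described by fixed lists. Beside these and the later lists, 25.6 percent of all genes tested fell and 24.4 percent rose in HN minus Control. In PEC minus HN 24.3 percent rose and 25.6 percent fell. Under library totals 1603 of 15506 genes fell and 8201 rose in HN minus Control, with a median of 0.51. Under that scaling 2428 rose and 5587 fell in PEC minus HN, with a median of -0.22. Of 9 complex I assembly genes, 8 fell in HN minus Control (median -0.75, with 3 lower and 1 higher under library totals), and 3 rose and 1 fell in PEC minus HN (0.16, but -0.06 with 3 higher and 2 lower under library totals). Coa1 was not analysed here. Of 4 complex II assembly genes, 3 fell in HN minus Control (1 lower and 1 higher under library totals) and 2 rose in PEC minus HN (1 under library totals). Of 7 further genes of complex III, 4 fell in HN minus Control (median -0.41, but 0.10 with 2 lower and 2 higher under library totals) and 5 rose in PEC minus HN (2 under library totals). Of 24 complex IV assembly genes, 18 fell in HN minus Control (median -0.54, with 4 lower and 2 higher under library totals), and 11 rose and 4 fell in PEC minus HN (0.26, with 5 higher and 6 lower under library totals). Of 4 genes for complex V assembly and inhibition, 3 fell in HN minus Control (0 under library totals) and 2 rose in PEC minus HN (1 under library totals). The largest falls in HN minus Control were -1.44 for Acad9, which aids complex I assembly, -0.94 for Sdhaf1, which aids the insertion of iron-sulfur clusters into Sdhb, -1.02 for Cyc1, cytochrome c1 of complex III, -1.04 for Cox15, which makes heme A, and -0.71 for Tmem70, which aids complex V assembly. In PEC minus HN these genes had 0.25, 0.73, 0.38, 0.00 and -0.34, of which Sdhaf1 and Cyc1 passed, Cyc1 not under library totals (0.17). Acad9 passed there with length offsets (0.57). Tmem70 no longer passed in HN minus Control under library totals (-0.21), without the libraries with adipocyte markers (-0.53) or when any library but Control 5 was left out (-0.76 to -0.53).

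Some complex IV assembly genes, chosen after their values were seen, stood apart in PEC. Pet100, which aids complex IV assembly, had levels of 8.102, 7.91, 8.79 (Control), 4.35, 4.75, 5.93 (HN) and 17.7, 16.2, 16.2 (PEC) in TMM-scaled FPKM. Every PEC library was above every other, and it rose by 1.76 in PEC minus HN. Pet117 was at 0 in every Control and HN library and at 3.27, 4.68 and 1.62 in PEC, and no fold is given. Taco1, a translational activator of the mitochondrially encoded Cox1, had levels of 22.2, 19.4, 24.8 (Control), 12.1, 11.5, 11.6 (HN) and 6.14, 6.41, 5.17 (PEC). Every PEC library was lowest. Taco1, Cox11, Cmc1 and Coa6 fell in PEC minus HN, with -0.97, -0.73, -0.75 and -0.38.

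Around the chain, 15 of 17 genes for electron carriers and ubiquinone synthesis fell in HN minus Control (median -0.69, but -0.17 with 8 lower under library totals) and 10 rose in PEC minus HN (0.41, but 0.20 with 2 higher under library totals). The largest fall was that of Coq8a, a kinase-like protein of ubiquinone synthesis, at -1.77, and its rise of 0.69 in PEC minus HN no longer passed under library totals (0.48) or without HN 8 (0.54). Electron transfer flavoprotein, which brings electrons from fatty acid oxidation, has the subunits Etfa and Etfb, chosen after their values were seen. Etfa had levels of 230.1, 213, 203 (Control), 76.4, 76.1, 72.8 (HN) and 76.8, 88.2, 78.2 (PEC) in TMM-scaled FPKM. Etfb had levels of 243, 217, 209 (Control), 72.9, 61.1, 71.3 (HN) and 229, 219, 259 (PEC). Control and PEC overlapped for Etfb, while for Etfa every PEC library was slightly above HN and far below Control. Their log2 differences were -1.495 and -1.68 in HN minus Control, where both fell, and 0.13 and 1.803 in PEC minus HN, where Etfb alone of the 2 passed, and Etfa too with GC offsets.

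Of 78 mitochondrial ribosomal protein genes, 62 fell and 1 rose in HN minus Control (median -0.51), beside 25.6 and 24.4 percent of all genes tested. Under library totals 9 fell and 8 rose there (0.01), beside 1603 and 8201 of the 15506 genes tested, whose median was 0.51. In PEC minus HN 53 rose and 5 fell (0.43), beside 24.3 and 25.6 percent of all genes tested. Under library totals 33 rose and 9 fell there, beside 2428 and 5587 genes. Mrpl12 had the largest fall (-1.06), and Mrpl33 was the gene that rose (0.35), though not with length offsets (0.20). Of 18 genes of the outer membrane, import and cristae, 16 fell in HN minus Control (median -0.66, with 5 lower and 4 higher under library totals), and 9 rose and 2 fell in PEC minus HN (0.22, with 3 higher and 4 lower under library totals, and -0.01 in limma on log2(FPKM + 1)). The chaperonin Hspd1 had the largest fall (-1.53) and -0.31 in PEC minus HN, which did not pass, and which was -0.43 without PEC 2 and -0.53 under library totals and passed in both.

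Regulators of mitochondrial biogenesis were named in full. Of 18, 10 fell and 1 rose in HN minus Control (median -0.54), where 25.6 percent of all genes tested fell and 24.4 percent rose. In PEC minus HN 3 rose and 4 fell (-0.25), where 24.3 percent of all genes tested rose and 25.6 percent fell. Under library totals 4 fell and 6 rose in HN minus Control (-0.02), beside 1603 and 8201 of the 15506 genes tested. Under that scaling 12 fell and 1 rose in PEC minus HN (-0.47), beside 5587 and 2428 genes. The median in PEC minus HN was 0.07 with GC and length offsets. Ppargc1a, the coactivator known for mitochondrial biogenesis, had levels of 11.7, 13.7, 14.5 (Control), 7.31, 6.63, 6.94 (HN) and 5.72, 6.29, 5.11 (PEC) in TMM-scaled FPKM. Control was highest and every PEC library was below every HN library. It fell by 0.91 in HN minus Control and had -0.27 in PEC minus HN, which did not pass, and which passed without Control 2 (-0.27) or PEC 2 (-0.33) and under library totals (-0.49). Esrra, a nuclear receptor that works with it, had levels of 33.3, 30.1, 31.9 (Control), 17.2, 13.4, 17.3 (HN) and 14.6, 13.5, 10.6 (PEC). HN and PEC overlapped below Control. It fell in HN minus Control (-0.97) and had -0.29 in PEC minus HN, which did not pass, and which was -0.40 without HN 8 and -0.51 under library totals and passed in both. Ppara, a receptor for fatty acid oxidation genes, had levels of 15.6, 18.3, 18.7 (Control), 9.62, 5.86, 4.91 (HN) and 1.69, 2.45, 1.56 (PEC). The groups did not overlap, with PEC lowest, and Ppara fell in both HN minus Control (-1.34) and PEC minus HN (-1.82).

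Gabpa, a factor whose motif was searched in the promoters, had levels of 9.696, 8.79, 11.9 (Control), 7.999, 8.39, 8.22 (HN) and 3.69, 4.19, 3.85 (PEC) in TMM-scaled FPKM. PEC was lowest, and its log2 difference was -0.28 in HN minus Control, where it did not pass and turned to 0.25, passing, under library totals, and -1.05 in PEC minus HN, where it fell. Without Control 4 Gabpa had -0.37 in HN minus Control and passed. Nrf1 had 0.26 and -0.23 in the same comparisons and Gabpb1, a partner of Gabpa, 0.31 and -0.52, and neither passed, though both rose in HN minus Control under library totals (0.77 for Nrf1 and 0.84 for Gabpb1), and Nrf1 then fell in PEC minus HN (-0.45), as Gabpb1 did in limma on log2(FPKM + 1) (-0.55). Yy1 had -0.08 in HN minus Control, which did not pass but turned to 0.44 and passed under library totals, and fell in PEC minus HN (-0.37), though not with length offsets (-0.13). Pprc1, a relative of Ppargc1a, rose in HN minus Control (0.85) and had -0.32 in PEC minus HN, which did not pass, and which passed without Control 5 and under library totals (-0.53). Ppargc1b fell in HN minus Control (-1.01), as did the receptor Esrrb (-1.26), and neither passed without the libraries with adipocyte markers (-0.81 and -1.23) or under library totals (-0.49 and -0.76). Ppargc1b had -0.46 and Esrrb 0.35 in PEC minus HN, and neither passed, though Ppargc1b did under library totals (-0.68). The receptor Esrrg did not pass in HN minus Control (-0.10) and fell in PEC minus HN (-1.04).

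Factors that act on mitochondrial DNA were lower in HN in part. The packaging and transcription factor Tfam fell in HN minus Control (-0.69), as did Tfb2m (-0.87), Tfb1m (-0.62), the helicase Twnk (-0.73) and the RNA polymerase Polrmt (-0.46). Tfb1m no longer passed without HN 8 (-0.57), and under library totals Tfam (-0.17), Tfb1m (-0.10) and Twnk (-0.21) no longer passed and Polrmt turned to 0.06. The polymerase subunits Polg (-0.18) and Polg2 (-0.19) did not pass, and Polg turned to 0.33 and passed under library totals. In PEC minus HN Twnk (0.62), Polg2 (0.54) and Polrmt (0.32) rose. The rise of Polg2 did not pass without HN 4, HN 8, HN 12, PEC 1 or PEC 2 (0.38 to 0.57), nor that of Polrmt without HN 4, HN 8, PEC 1 or PEC 3 (0.28 to 0.32), and under library totals neither passed (0.32 and 0.10). Tfam (-0.03), Tfb1m (0.10), Tfb2m (-0.07) and Polg (-0.18) did not pass there. Under library totals Tfam (-0.25), Tfb2m (-0.29) and Polg (-0.39) passed, while Tfb2m turned to 0.27 and passed with GC offsets.

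Of 10 target genes of hypoxia-inducible factors, 5 fell and 1 (Hk2) rose in HN minus Control, beside 25.6 and 24.4 percent of all genes tested. The median of the 10 was -0.44, but 0.08 with 4 higher and 4 lower under library totals. In the treated mice 5 rose against HN, beside 24.3 percent of all genes tested (0.34, but 0.12 with 2 higher under library totals). Hk2, a hexokinase, had 3.71 in HN minus Control, a description only, since its group mean was under 0.5 in Control and the filter favoured a rise. Car9, a carbonic anhydrase, had the largest fall (-1.94) and rose by 2.06 in PEC minus HN.

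Markers of kidney cell types moved between the groups as well. Of 10 proximal tubule markers, 9 fell in HN minus Control (median -2.0004) and 8 rose in PEC minus HN (0.89), and the largest fall was that of Slc7a13, a transporter of the last proximal segment, at -2.79. Of 7 markers of the thick limb and distal convoluted tubule, 4 fell and 2 rose in HN minus Control (-0.63, with 3 lower and 3 higher under library totals), and 3 rose in PEC minus HN (0.10, but -0.12 under library totals). There Pvalb, a calcium-binding protein of the distal convoluted tubule counted among the 4 that fell, had -5.69 and 3.92. These are given as a description since its group mean was under 0.5 in HN. The channel Trpm6 rose in HN minus Control (0.79), though not without Control 2, Control 4, HN 4 or HN 8 (0.59 to 0.78). Of 7 collecting duct markers, 6 fell in HN minus Control (-1.09, with 4 lower and 1 higher under library totals) and 6 rose in PEC minus HN (0.75), with Slc4a1, an anion exchanger, at -2.23 and 1.39. These 7 summed to 459, 505, 273 (Control), 194, 132, 183 (HN) and 245, 239.7, 309 (PEC) in TMM-scaled FPKM, with Aqp2 most abundant. Most proximal tubule and collecting duct markers were lower in HN along with the members, and their part in the result was not tested.

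Markers of other cells rose in HN. Of 9 leukocyte markers 8 were tested and 8 rose in HN minus Control (median 3.26), while 5 fell in PEC minus HN (-0.96), and Cd79a had a mean FPKM under 0.5. Their summed level was 97.6, 109, 107 (Control), 1239.9, 1247, 1090.3 (HN) and 591, 743, 1027 (PEC) in TMM-scaled FPKM, with Cd74 most abundant. The macrophage integrin Itgam, counted among the 8 that rose, had 5.48 in HN minus Control. This is a description only, since its group mean was under 0.5 in Control and the filter favoured a rise. In PEC minus HN Itgam fell by 1.53, which was -1.49 and did not pass without the libraries with adipocyte markers. All 7 fibroblast and pericyte markers rose in HN minus Control (1.44) and 5 fell in PEC minus HN (-0.90), and they summed to 51.9, 49.9, 47.9 (Control), 263, 264, 240.4 (HN) and 153, 172, 143 (PEC), with the highest mean level for Col3a1, which led in HN only. The collagen gene Col1a1 rose most (4.29). All 6 markers of tubular injury rose in HN minus Control (5.004) and 2 fell in PEC minus HN (-0.43, with 4 lower under library totals), and they summed to 469, 509, 453 (Control), 10355, 9016, 9011 (HN) and 7928, 8305, 6662 (PEC), with Spp1, osteopontin, most abundant. Havcr1, kidney injury molecule 1, had the largest rise of these (7.62).

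Podocyte and endothelial markers were counted last. Of 5 podocyte markers 1, Synpo, rose in HN minus Control (0.86) and 1, Podxl, rose in PEC minus HN, beside 24.4 and 24.3 percent of all genes tested. Their median in HN minus Control was 0.21, but -0.05 with GC and length offsets and 0.73 with 5 higher under library totals, and they summed to 67.9, 66.7, 70.01 (Control), 72.8, 64.8, 60.9 (HN) and 77.7, 77.003, 68.03 (PEC) in TMM-scaled FPKM, with Podxl most abundant. Of 6 endothelial markers 3 fell and 1 rose in HN minus Control (median -0.37, but 0.15 with 0 lower and 2 higher under library totals), and 1 rose and 1 fell in PEC minus HN (0 and 3 under library totals). They summed to 50.003, 55.5, 60.3 (Control), 46.9, 45.5, 43.8 (HN) and 38.5, 45.6, 56.2 (PEC), with the highest mean level for Emcn, which led in PEC and Control 5 only. The receptor Kdr had the largest fall (-0.96), which did not pass under library totals (-0.44), and the cadherin Cdh5 rose (0.48), though not without Control 2, Control 5 or any HN library (0.39 to 0.50) or with GC and length offsets (0.28). The part of leukocytes, fibroblasts and injured tubules in the lower share of respiratory chain RNA was not tested.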

How the data were processed

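Kidney RNA-seq of 3 Control, 3 HN and 3 PEC libraries was used, grouped by the disease state and treatment labels. The authors deposited whole-number counts per gene, without normalization, and FPKM values computed from counts, gene length and library totals. The counting program is not given in the sources used here. The submitters' processing notes name Bowtie 0.12.2, mm8 and mm9, while the coordinates of the table are those of GRCm38, identical to GENCODE M21 for 51954 of 55144 genes found there. Total counts were 57714111 to 81069646 per library.

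The tested genes were those whose mean FPKM reached 0.5, and they were compared with edgeR 4.0.16 in R 4.3.3 (glmQLFit and glmQLFTest, TMM factors, 9 libraries in 1 fit without covariates), and p-values were adjusted over all 15506 of them. SE is the log2 difference over the square root of F. Alternatives were median-of-ratios factors, library totals, TMM without mitochondrially encoded genes, DESeq2 1.42.0, limma 3.58.1 on log2(FPKM + 1) and log2(FPKM + 0.1), other filters, fits of only the groups compared, offsets for length or GC content or both (splines with 5 degrees of freedom), copy reads added, libraries with adipocyte markers left out, each library left out, and the study's rule of a fold change of at least 1.5 at an unadjusted p of at most 0.05. Near-identical copies were genes annotated as processed pseudogenes and matched by blastn 2.17.0 at 90% identity over at least 50% of the copy. Summaries used Python 3.11.15, pandas 2.3.3 and scipy 1.17.1. The edgeR step was run on made-up counts with changes of known size.

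Members and gene lists were chosen with earlier results of these data known. The genes named are, in each complex, the member with the highest mean level and the largest rise and fall with no overlap between groups in HN minus Control and in PEC minus HN, the 4 Sdh genes, subunits with several forms, members at the threshold, the largest rise and fall of each other list in HN minus Control, all regulators and markers at 0. Genes named outside this rule are marked as chosen after their values were seen. Promoters are from RefSeq on GRCm38.p6, and those on chromosome 18 are not shown. Protein sequences were not used here. A listed gene and the results of its list are not reported here.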

Additional observations from a re-analysis of the deposited data

How the results depend on the processing

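The median of the members stayed negative in HN minus Control and positive in PEC minus HN, while its size and the counts moved with the scaling, and the cause was not tested. In HN minus Control the members lower were 65 under library totals and 67 and 67 in limma, against 85 in edgeR with TMM factors, and Ndufa7, Ndufaf3 and Atp5g2 turned positive there. The members higher were 2 under library totals, 4 in limma on log2(FPKM + 1), 4 in limma on log2(FPKM + 0.1) and 0 without the libraries with adipocyte markers. The median was -0.42, -0.43 and -0.43 under totals and the 2 limma fits, and -1.04, -1.03 and -1.002 with offsets for length, GC content and both. In PEC minus HN the members higher were 42 and 42 in limma and 41 by the study's rule. The members lower were 5, 5 and 5 under totals and limma, 4 with length offsets, 1 without the libraries with adipocyte markers and 1 by the study's rule. The median was 0.32, 0.28 and 0.29 under totals and limma, 0.49 without a filter, 0.37 with length offsets and 0.39 with both. In PEC minus Control the members higher were 30, 29 and 29 under totals and limma, 3, 7 and 2 with offsets for length, GC content and both, and 5 by the study's rule. The members lower were 33, 34 and 34, and 29 by the study's rule. The median was -0.0515, -0.0910 and -0.0919 under totals and limma, -0.41 without a filter, -0.31 at a mean FPKM of at least 1, -0.63, -0.52 and -0.58 with offsets for length, GC content and both, and -0.29 without the libraries with adipocyte markers.

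Leaving out 1 library at a time gave medians of -0.97 to -0.91 in HN minus Control, 0.4995 to 0.57 in PEC minus HN and -0.40 (-0.398, without Control 5) to -0.32 in PEC minus Control. Directions turned for Sdhd in PEC minus HN (-0.24 with GC and length offsets) and for Tfb2m there (0.27 with GC offsets). In HN minus Control the direction of Gabpa turned under totals (0.25). In the same comparison 4 genes turned under totals and in both limma fits, and their values are given in that order. They were Atp5g2 (0.0925, 0.0685 and 0.0692), Polrmt (0.0585, 0.0261 and 0.0300), Polg (0.33, 0.26 and 0.31) and Yy1 (0.44, 0.39 and 0.42). Of 3546 values for 74 named genes in HN minus Control and PEC minus HN, 3278 kept the call of passing or not passing, while their sizes moved with the scaling. PEC minus Control is not in this tally, and directions that turned there are given with the genes. GC and length offsets together and the fits without the libraries with adipocyte markers were chosen after seeing the data. No paired analysis was made, since the mice were randomly assigned to groups and no label names pairs. Control and HN share the number 4, Control and PEC the number 2, and HN and PEC none, and shared numbers were not taken as pairs.

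With 3 mice in a group, an overlap of groups or a p above 0.05 does not show that levels were equal. Bulk RNA gives no count of cells, and neither protein nor respiration was measured in these values. Members with copies of near-identical sequence carry added error, and values near the threshold rest on few reads.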

Other observations

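Some pseudogenes that the naming rule dropped differed between the groups. Atp5l2-ps had deposited FPKM of 3.69, 2.94, 3.68 (Control), 3.16, 2.75, 3.84 (HN) and 12.03, 11.6, 14.03 (PEC). Atp5pb-ps had 4.66, 4.71, 4.62 (Control), 2.69, 3.29, 3.75 (HN) and 11.7, 12.6, 8.14 (PEC). For both, every PEC library was above every other. Ndufab1-ps had 31.7, 27.5, 44.6 (Control), 18.2, 25.1, 31.01 (HN) and 10.1, 10.4, 11.6 (PEC), with every PEC library below every other, while Ndufab1 itself fell in HN minus Control (-1.02) and did not pass in PEC minus HN (0.13) except with offsets for length or GC content. The pseudogenes were chosen after their values were seen, and placement of reads from the parent genes was not tested.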
